A study of Mus musculus with 12 samples.

Results

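The 10 genes that mark T cells and natural killer (NK) cells were followed through 12 RNA sequencing libraries of mouse brain cells. They were a named list, 10 of the 41388 genes in each deposited table, matched by Ensembl identifier to their mouse symbols. The rule that names them uses no measured value, but they and the wider lists were chosen with earlier results of these data known. The list held the CD3 chains Cd3d, Cd3e and Cd3g, the coreceptors Cd8a and Cd4, the kinase gene Lck, and the cytotoxic lymphocyte genes Nkg7, Gzma, Gzmb and Klrd1. The libraries fell into 4 groups. Isolated astrocytes came from 5 mice labelled as Bmal1 astrocyte knockouts (aKO; Cre+) and from 3 labelled wild type (WT; Cre-). Flowthrough, the other brain cells that were left after astrocyte isolation, came from 2 aKO and 2 WT mice, each of which had also given an astrocyte library. All animals shared the strain Bmal fl/fl; ALDH1L1-CreERT2 on a C57BL\6 background. Tamoxifen had been given by mouth to every animal, the Cre- mice included, at 2 months of age (2 mg daily over 5 days), and brains were collected at 7 months. The Cre recombinase was driven by Aldh1l1, an astrocyte gene, so any deletion was aimed at astrocytes and not at lymphocytes. Astrocytes had been bound by magnetic beads against ACSA-2, an epitope of the protein encoded by Atp1b2. Each title's number was taken to identify the mouse, and p-values measure the spread between libraries of different mice within a group. In the main fits of all 12 libraries, mice with both fractions entered once per fraction, without pairing. For the fractions a fit with the animal as a block is also given. The titles of all 4 flowthrough libraries carried a letter b that no label explains, and what it marks cannot be told apart from the fraction.

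As background, T cells recognise antigen through a T cell receptor that signals through the CD3 chains. CD8 marks mostly killer T cells and CD4 mostly helper T cells, and each holds the kinase LCK close to the receptor. NK cells carry no T cell receptor, but share with killer T cells the granules that deliver perforin and granzymes. In a healthy brain lymphocytes are few and lie mainly in the meninges, the choroid plexus and the blood vessels. A cell suspension made from a whole brain may hold lymphocytes of all these places and of blood.

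Total counts were between 21816637 and 62655238 in astrocytes and between 33019572 and 53868165 in flowthrough. Levels are given as CPM, which divides a count by all counts of its library, and within a group always by rising animal number, namely 203, 205, 208, 221 and 222 for aKO astrocytes, 201, 202 and 265 for WT astrocytes, 203 and 205 for aKO flowthrough and 201 and 202 for WT flowthrough. The fractions differed in the direction of their names: 9 of 12 astrocyte marker genes were called higher in astrocytes, against 8.52% of the 20637 genes tested. Atp1b2 averaged 500.4 ± 257 CPM in astrocytes (SD, n = 8) and 72.6 ± 41.4 CPM in flowthrough (SD, n = 4). Arntl, the official symbol of Bmal1, had 5.05 to 25.01 CPM in astrocytes labelled aKO and 2.13 to 6.80 CPM in those labelled WT. In flowthrough Arntl had 3.49 and 1.57 CPM in libraries labelled aKO and 3.21 and 4.39 CPM in those labelled WT. Counts over the whole gene do not show the loss of a deleted part, and in astrocytes they ran against the labels, so the genotypes rest on the titles. For the astrocyte library of animal 202, the title gives WT and the genotype field a knockout. It counts as WT here, which the flowthrough label of the same animal and the stated group sizes also give.

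The 3 CD3 genes were far lower in astrocytes than in flowthrough, and all 3 passed the test in that direction, as did 8.52% of the 20637 genes tested. They encode the delta, epsilon and gamma chains through which the T cell receptor signals. Cd3d had 0.0917, 0.245, 0.287, 1.11 and 1.74 CPM in aKO astrocytes and 0.431, 0.0533 and 1.16 CPM in WT astrocytes, against 12.0 and 16.3 CPM in aKO flowthrough and 12.5 and 6.12 CPM in WT flowthrough. Cd3e had 0.367, 0.489, 0.115, 0.630 and 0.522 CPM in aKO astrocytes and 0.798, 0.0533 and 0 CPM in WT astrocytes, against 3.45 and 0.909 CPM in aKO flowthrough and 7.33 and 8.34 CPM in WT flowthrough. Cd3g had 0.733, 0.550, 0.316, 0.210 and 0.957 CPM in aKO astrocytes and 0.814, 0.480 and 1.97 CPM in WT astrocytes, against 15.1 and 9.06 CPM in aKO flowthrough and 21.6 and 12.0 CPM in WT flowthrough. For each of the 3 genes every astrocyte library lay below every flowthrough library, which held for 4.51% of all genes tested, with the narrowest gap for Cd3e, whose highest astrocyte value (WT 201) stood just under aKO 205 flowthrough. The log2 fold change of astrocytes over flowthrough, both genotypes weighted equally, was -4.45 for Cd3d (SE 0.72; edgeR adjusted p = 0.000480). It was -3.80 for Cd3e (SE 0.66; edgeR adjusted p = 0.000851) and -4.44 for Cd3g (SE 0.48; edgeR adjusted p = 1.07e-05). Without WT 201 astrocytes the value of Cd3e was -5.26, and without aKO 222 and WT 265 astrocytes together those of Cd3d and Cd3g were -5.44 and -5.04. With the animal as a block that of Cd3d was -6.34. In bulk RNA, fewer cells of a type and less RNA per cell cannot be told apart.

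**Figure D1:**
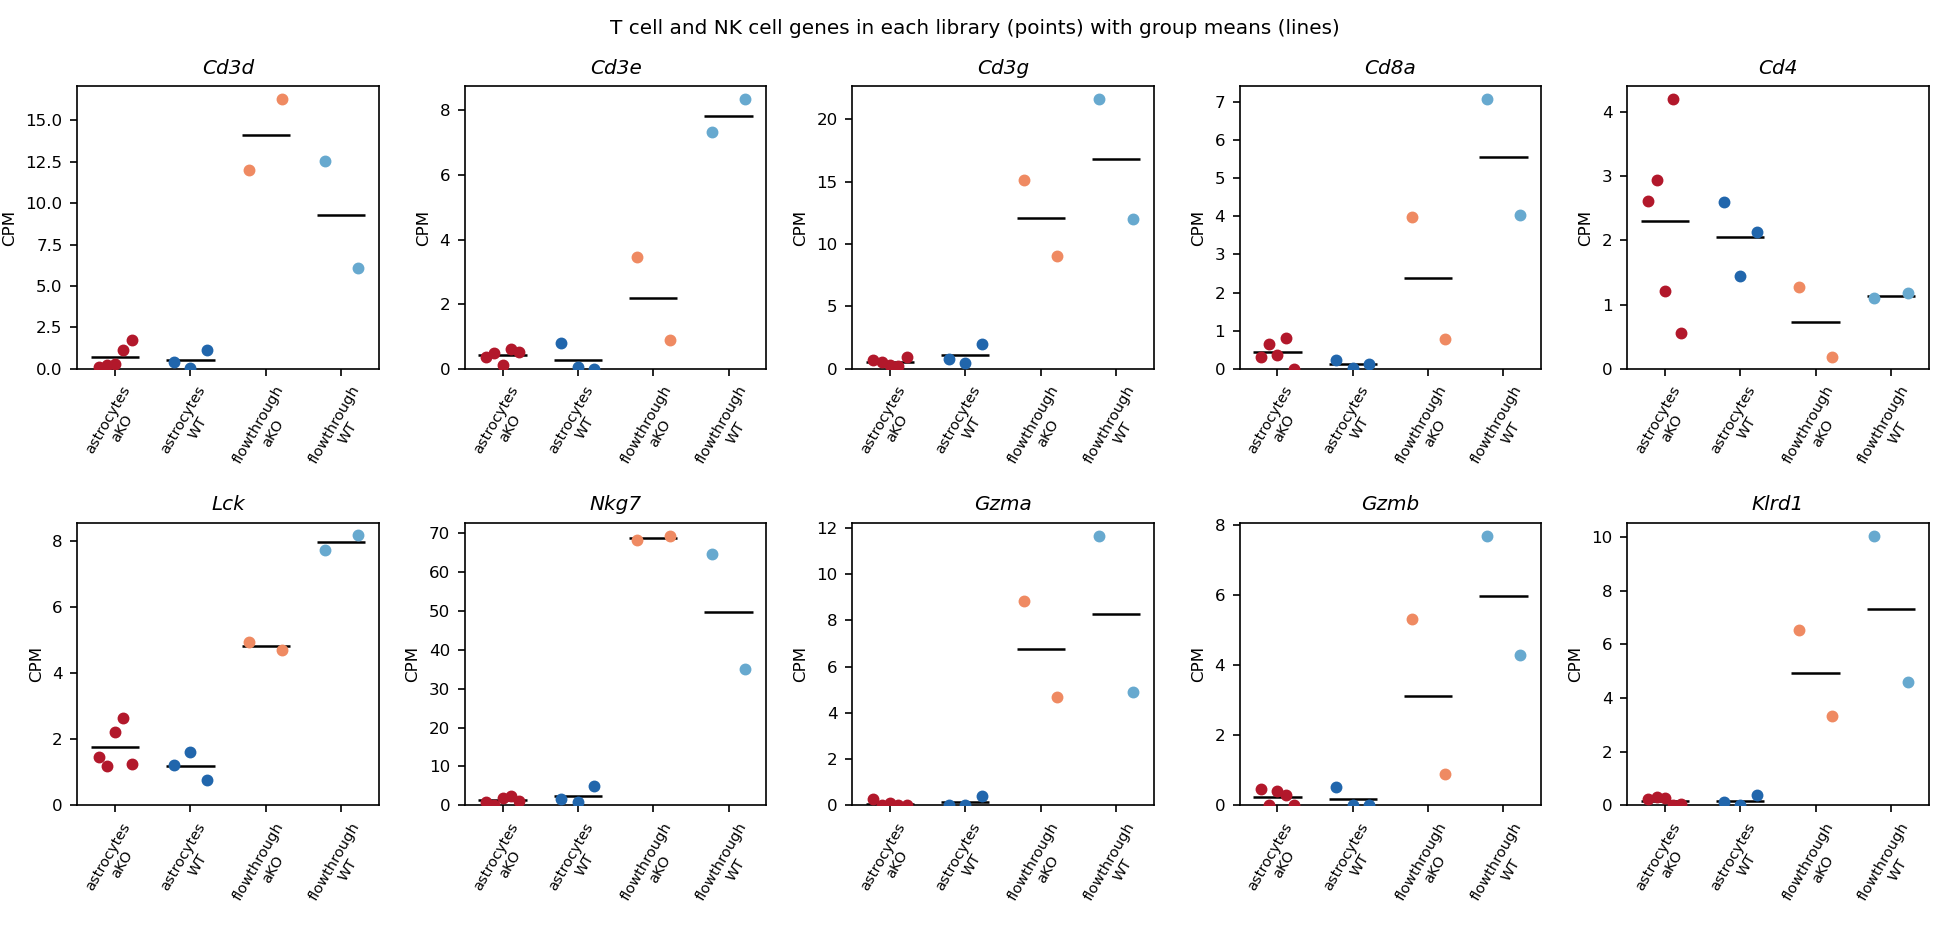
CPM of each of the 10 genes (vertical axis, linear, its own range per gene) in aKO astrocytes, WT astrocytes, aKO flowthrough and WT flowthrough; points are libraries and lines group means. On these axes all genes except Cd4 and Lck lie near the foot of their panels in astrocytes, where Nkg7 reaches 4.90 CPM. Lck lies between 0.763 and 2.64 CPM there. Of the aKO flowthrough libraries, aKO 205 is the lower for all genes except Cd3d and Nkg7. It has 0.909, 0.787, 0.182 and 0.909 CPM for Cd3e, Cd8a, Cd4 and Gzmb.

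The CD3 genes lie side by side on chromosome 9 in GRCm38. In the exons of the deposited tables, Cd3g spans chr9:44969572-44980431 on the minus strand, Cd3d chr9:44981793-44987052 on the plus strand and Cd3e chr9:44998743-45009590 on the minus strand. Cd3g and Cd3d point away from each other with 1361 bases between their starts, while Cd3d and Cd3e point towards each other with 11690 bases between their ends. None of their exons overlaps another annotated gene. Because the 3 genes are neighbours and were all lower in astrocytes, the 250 bases before each RefSeq start (build GRCm38.p6) are shown here 5′ to 3′ on the gene's strand. Capitals mark GGAAGT or its reverse complement, which is a core bound by ETS factors together with its flank. Other forms of the ETS core were not searched. None of the 3 windows holds TGTGGT, a core bound by RUNX factors, on either strand.
Cd3d chr9:44981536-44981785 plus strand: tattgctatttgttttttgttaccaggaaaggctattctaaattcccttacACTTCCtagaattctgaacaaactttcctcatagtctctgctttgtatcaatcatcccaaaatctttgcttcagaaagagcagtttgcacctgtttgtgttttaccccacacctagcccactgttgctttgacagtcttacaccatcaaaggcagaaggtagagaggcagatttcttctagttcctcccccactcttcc
Cd3e chr9:45009612-45009861 minus strand: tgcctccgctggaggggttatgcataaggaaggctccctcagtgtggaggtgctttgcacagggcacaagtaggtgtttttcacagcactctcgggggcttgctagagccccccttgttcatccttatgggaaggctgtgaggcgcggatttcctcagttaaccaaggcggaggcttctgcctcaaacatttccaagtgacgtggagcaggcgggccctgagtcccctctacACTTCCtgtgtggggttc
Cd3g chr9:44980432-44980681 minus strand: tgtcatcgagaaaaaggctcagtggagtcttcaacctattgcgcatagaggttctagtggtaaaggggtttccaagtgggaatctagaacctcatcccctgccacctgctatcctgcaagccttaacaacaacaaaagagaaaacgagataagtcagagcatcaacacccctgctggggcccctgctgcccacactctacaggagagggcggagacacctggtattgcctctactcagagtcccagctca

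GGAAGT or its reverse complement stood in the windows of Cd3d and Cd3e and not in that of Cd3g. Promoters were found for 8 of the 10 genes, 9 windows in all as Lck has 2 starts. GGAAGT occurred in 4 of the 9 windows, of 3 genes, against 19.7% of 32851 mouse promoter windows of the same length. TGTGGT occurred in 4 of 9, of 4 genes, against 14.0%. CACGTG, the E-box that the BMAL1 and CLOCK pair binds, occurred in 0 of 9, against 6.02%. No 2 of the motifs share bases where they were found. A match describes letters in the window and no binding was measured.

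Cd8a was lower in astrocytes and Cd4 was not. Cd8a encodes the alpha chain of CD8. It had 0.321, 0.642, 0.373, 0.810 and 0 CPM in aKO astrocytes and 0.239, 0.0267 and 0.120 CPM in WT astrocytes, against 3.97 and 0.787 CPM in aKO flowthrough and 7.06 and 4.03 CPM in WT flowthrough. The fractions overlapped at a single point, as aKO 221 astrocytes exceeded aKO 205 flowthrough. Astrocytes over flowthrough gave a log2 fold change of -4.20 (SE 0.66; edgeR adjusted p = 0.000323), and it was -3.46 without aKO 203 flowthrough. Cd4 had 2.61, 2.94, 1.21, 4.20 and 0.565 CPM in aKO astrocytes and 2.60, 1.44 and 2.13 CPM in WT astrocytes, against 1.28 and 0.182 CPM in aKO flowthrough and 1.10 and 1.18 CPM in WT flowthrough. In all 4 animals with both fractions the astrocyte library had the higher Cd4 level, which was not counted over all genes. The log2 fold change was 0.98 (SE 0.54; edgeR adjusted p = 0.224), and 1.91 without aKO 203 flowthrough, so the difference between fractions did not pass the test. It passed in 0 of 21 alternative settings, where the adjusted p ranged from 0.0549 to 0.483. Per base of exon, Cd8a exceeded Cd4 in 4 of 4 flowthrough libraries, with RPKM ratios of 4.00 and 5.58 in aKO and 8.25 and 4.41 in WT. In astrocytes Cd8a lay below Cd4 in all 8 libraries, with RPKM ratios from 0 to 0.399.

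Cd4 is not limited to helper T cells in mice, as some dendritic cells also carry it. Of the marker lists, 2 are given here beside Cd4, those of dendritic cells and of border macrophages, the macrophages of meninges, vessels and choroid plexus. The dendritic cell list had a median log2 fold change of -1.50. Of its 11 genes tested 5 were called lower and 0 higher, against 8.52% of all genes each way. The 10 genes of the border macrophage list had a median log2 fold change of -0.13. Of these, 1 of 10, Stab1, was called lower (log2 fold change -1.84, SE 0.45, edgeR adjusted p = 0.00944), near the 8.52% of all genes. Stab1 passed in 18 of 21 alternatives, with an adjusted p of up to 0.0922. The summed level of the border macrophage list was 62.7 to 431 CPM in astrocytes and 248 to 377 CPM in flowthrough. Lyve1, a hyaluronan receptor on such macrophages, averaged 16.6 ± 11.0 CPM in astrocytes (SD, n = 8) and 7.88 ± 1.91 CPM in flowthrough (SD, n = 4), with edgeR adjusted p = 0.328. Pf4, a chemokine gene, averaged 62.7 ± 41.0 CPM in astrocytes and 111.8 ± 52.0 CPM in flowthrough (edgeR adjusted p = 0.226), and Ms4a7 28.5 ± 14.0 CPM in astrocytes and 34.9 ± 8.69 CPM in flowthrough (edgeR adjusted p = 0.414). The part of these genes in the level of Cd4 was not tested.

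Lck was lower in astrocytes, with the smallest fall of the 9 genes that passed, though relative to Ptprc counts its mean was higher there. Ptprc itself had a log2 fold change of -2.94, a larger fall than that of Lck, so the turn follows from the divisor. Lck encodes the kinase that phosphorylates the CD3 chains. Lck had 1.47, 1.19, 2.21, 2.64 and 1.26 CPM in aKO astrocytes and 1.21, 1.60 and 0.763 CPM in WT astrocytes, against 4.94 and 4.69 CPM in aKO flowthrough and 7.73 and 8.18 CPM in WT flowthrough. The groups did not overlap, and every astrocyte library held Lck reads, between 19 and 88 counts. Its log2 fold change was -2.32 (SE 0.36; edgeR adjusted p = 0.000301), which is 4.99-fold lower. Over the 21 alternatives it stayed between -2.53 and -2.19. Lck lies at chr4:129548344-129573641 on the minus strand, and 25 of its exon bases are shared with the microRNA gene Mir8119.

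The 4 cytotoxic lymphocyte genes were all lower in astrocytes. Nkg7 encodes a granule membrane protein of NK cells and killer T cells. It had 0.825, 0.183, 1.98, 2.31 and 1.04 CPM in aKO astrocytes and 1.63, 0.773 and 4.90 CPM in WT astrocytes, against 68.2 and 69.2 CPM in aKO flowthrough and 64.5 and 35.0 CPM in WT flowthrough. WT 265 was the highest astrocyte library and WT 202 the lowest in flowthrough, still far apart. The log2 fold change was -5.28 (SE 0.59; edgeR adjusted p = 1.43e-05), 38.9-fold lower, and -6.69 with the animal as a block. Klrd1, which encodes CD94, the partner chain of the NKG2 receptors, had 0.229, 0.306, 0.287, 0 and 0.0435 CPM in aKO astrocytes and 0.128, 0 and 0.402 CPM in WT astrocytes, against 6.53 and 3.33 CPM in aKO flowthrough and 10.05 and 4.60 CPM in WT flowthrough. Klrd1 held at most 10 counts in any astrocyte library and at least 110 in any flowthrough library. Its log2 fold change was -5.41 (SE 0.73; edgeR adjusted p = 7.73e-05), and -6.01 without WT 265 astrocytes.

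Granzymes are the proteases that killer cells deliver into their targets. Gzma had 0.275, 0, 0.115, 0 and 0 CPM in aKO astrocytes and 0, 0 and 0.402 CPM in WT astrocytes, against 8.84 and 4.66 CPM in aKO flowthrough and 11.6 and 4.91 CPM in WT flowthrough. It was at 0 in 5 of 8 astrocyte libraries, where a count of 0 allows up to 0.0479 to 0.130 CPM (3 counts, counting error only), and had 154 to 518 counts in flowthrough. Gzma had a log2 fold change of -6.59 (SE 0.96; edgeR adjusted p = 0.000199), and -9.13 without WT 265 astrocytes. Gzmb had 0.458, 0, 0.402, 0.300 and 0 CPM in aKO astrocytes and 0.527, 0 and 0 CPM in WT astrocytes, against 5.31 and 0.909 CPM in aKO flowthrough and 7.69 and 4.29 CPM in WT flowthrough. It was at 0 in 4 of 8 astrocyte libraries, and the groups did not overlap. The log2 fold change was -4.61 (SE 0.91; edgeR adjusted p = 0.00252), and it was -7.41 without WT 201 astrocytes and -3.79 without aKO 203 flowthrough. With so many zeros the fitted sizes of both granzymes depend on a handful of reads.

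The granzyme genes lie apart from each other, Gzma at chr13:113093825-113100979 and Gzmb at chr14:56258856-56262260, both on the minus strand. Their windows before the RefSeq start held the RUNX core TGTGGT and no GGAAGT on either strand, the reverse of what Cd3d and Cd3e held. They are shown 5′ to 3′, with TGTGGT or its reverse complement in capitals, which stands once in Gzma and at 2 places in Gzmb. The other windows with the RUNX core were those of Nkg7 and of 1 start of Lck.
Gzma chr13:113100982-113101231 minus strand: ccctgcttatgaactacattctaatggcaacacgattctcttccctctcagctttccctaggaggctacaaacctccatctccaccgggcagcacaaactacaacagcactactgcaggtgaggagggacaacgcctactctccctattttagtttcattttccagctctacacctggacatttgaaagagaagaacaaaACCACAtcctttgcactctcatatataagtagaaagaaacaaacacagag
Gzmb chr14:56262335-56262584 minus strand: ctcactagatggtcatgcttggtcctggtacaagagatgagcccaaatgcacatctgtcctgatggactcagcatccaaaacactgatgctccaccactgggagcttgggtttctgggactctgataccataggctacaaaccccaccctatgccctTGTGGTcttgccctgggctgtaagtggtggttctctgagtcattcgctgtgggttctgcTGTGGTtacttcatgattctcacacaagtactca

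Nkg7 lies at chr7:43437073-43438246 on the plus strand, and Klrd1 at chr6:129591782-129598775 on the plus strand. Cd8a spans chr6:71373427-71379171 on the plus strand and Cd4 chr6:124864692-124888221 on the minus strand. No exon of these 4 genes or of the granzymes overlaps another annotated gene.

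Over the list, 9 of the 10 genes were called lower in astrocytes, against 8.52% of all genes (17% in either direction, 3517 genes; 23.8% by DESeq2). The median log2 fold change was -4.45 over the 10 genes and 0.07 over all genes tested. All 10 passed the count filter of the fit of 12 libraries, though Gzma reached its level of 0.293 CPM in 1 and Klrd1 in 2 astrocyte libraries. The filter asks for 2 libraries, the size of the smallest group, so Gzma entered only through flowthrough. For 8 of the 10 genes, all but Cd8a and Cd4, every astrocyte library lay below every flowthrough library, against the 4.51% of all genes given above. Within animals, the 9 genes were lower in the astrocyte library of 4 of 4, which was not counted over all genes. The same 9 were called under each of 21 alternatives. A further check on scaling, among these, left out the mitochondrial genes, which took 11.1% to 36.5% of counts in astrocytes and 4.81% to 12.9% in flowthrough, together with Ttr. With the animal as a block, over the 8 libraries of 4 animals, 5951 genes were called (29.5%; 13.6% lower). Without WT 201 flowthrough edgeR called 1691 genes and without aKO 205 flowthrough 2136, and 9 of the 10 genes were lower in each.

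**Figure D2:**
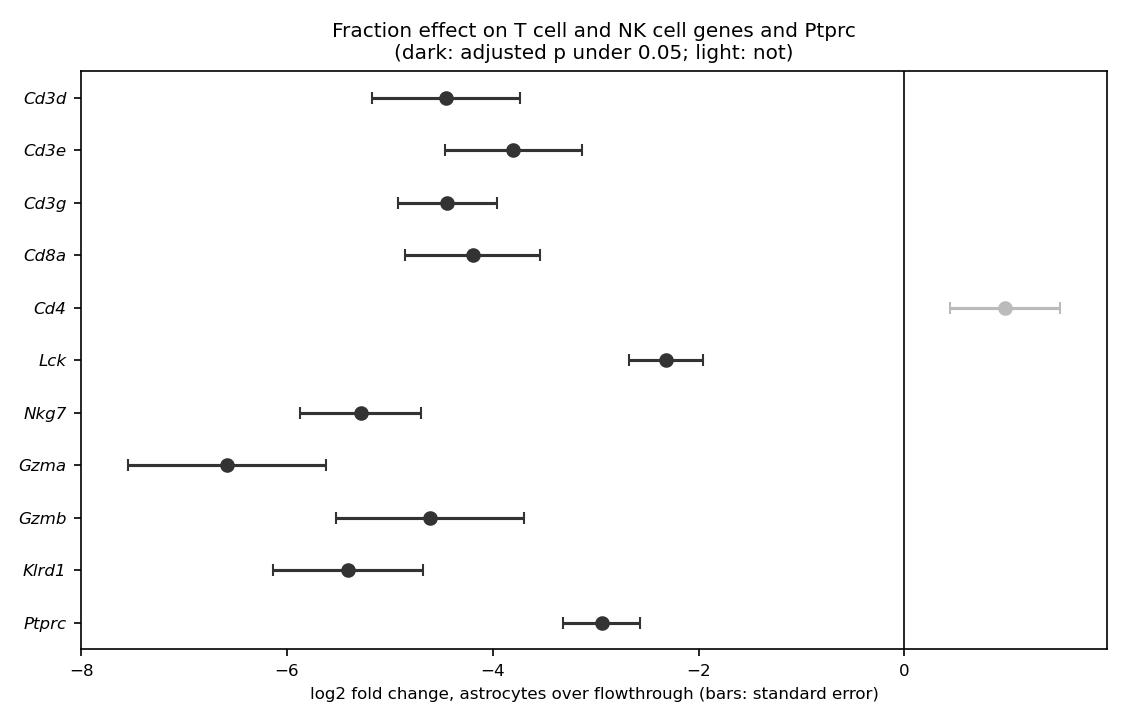
Log2 fold change of astrocytes over flowthrough (horizontal axis) with its standard error for the 10 genes and Ptprc, from edgeR over 12 libraries; dark points passed an adjusted p of 0.05. The other 9 genes and Ptprc lie left of 0, Lck nearest to it at -2.32, and Cd4 lies right of 0 at 0.98 without passing.

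Levels per length, in the RPKM deposited by the authors, put the genes in a similar order in both fractions at the top and not at the bottom. In astrocytes Nkg7 averaged 1.94 ± 1.67 RPKM (SD, n = 8), Cd3g 0.704 ± 0.515, Cd4 0.548 ± 0.283 and Lck 0.527 ± 0.207. In flowthrough Nkg7 averaged 67.5 ± 18.6 RPKM (SD, n = 4), Cd3g 13.5 ± 5.02, Cd3d 8.86 ± 3.17, Gzma 8.56 ± 3.82 and Klrd1 4.78 ± 2.28. Nkg7 and Cd3g led in both fractions, while Cd4 ranked 3 of 10 in astrocytes and 10 of 10 in flowthrough. The rest of the order in flowthrough was Cd3e at 3.49 ± 2.40, Gzmb at 3.21 ± 1.98, Lck at 2.18 ± 0.623, Cd8a at 1.27 ± 0.818 and Cd4 at 0.232 ± 0.126 RPKM. The ranges of neighbours in the order overlapped in both fractions, except those of Nkg7 and Cd3g in flowthrough. The remaining genes in astrocytes lay between 0.101 RPKM for Cd8a and 0.484 RPKM for Cd3d.

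In the wider T cell list more genes were lower than higher in astrocytes. Of 33 T cell receptor signalling and T lineage genes tested, 17 were called lower and 2 higher in astrocytes, where 8.52% of all genes were called in each direction. Their median log2 fold change was -2.10. In the astrocyte fit 27 genes of this list passed the filter, and a gene that passed only through flowthrough could hardly be called higher. Lcp2, an adaptor below the T cell receptor, averaged 6.85 ± 2.76 CPM in astrocytes (SD, n = 8) and 49.8 ± 16.4 CPM in flowthrough (SD, n = 4), and its log2 fold change was -3.16 (SE 0.30; edgeR adjusted p = 3.98e-06). Trbc1, a constant region of the T cell receptor beta chain, averaged 0.284 ± 0.198 CPM in astrocytes and 4.04 ± 2.09 CPM in flowthrough, and its log2 fold change was -3.98 (edgeR adjusted p = 6.82e-05). Ms4a4b, a T cell membrane protein gene, changed by -4.58 and Cd2, an adhesion receptor of T and NK cells, by -3.04 on the log2 scale (edgeR adjusted p = 6.63e-06 and 0.000298). The 2 that were higher, named after their values were seen, were Bcl11b and Fyn, a transcription factor and a kinase that T cells share with neural cells. Fyn averaged 44.2 ± 17.0 CPM in astrocytes and 15.8 ± 6.58 CPM in flowthrough (edgeR adjusted p = 0.0273), and Bcl11b 9.55 ± 4.19 CPM in astrocytes and 2.85 ± 2.21 CPM in flowthrough (edgeR adjusted p = 0.0390). Trac, the constant region of the alpha chain, was also picked after its values were seen, and it had 1.10 to 10.7 CPM in astrocytes and 0.575 to 9.83 CPM in flowthrough, and its log2 fold change was -0.52 (SE 0.60; edgeR adjusted p = 0.577). Among flowthrough libraries aKO 205 was the lowest for Trac, as it was for Cd3e and Cd8a.

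Of 30 NK and cytotoxic lymphocyte genes tested, 23 were called lower and 1 higher in astrocytes, against 8.52% of all genes in each direction, with a median of -3.42. Only 12 genes of this list passed the filter of the astrocyte fit. Genes that passed the filter only through flowthrough could hardly be called anything but lower in astrocytes. The share called lower is thus a description. Ccl5, a chemokine of killer T cells and NK cells, averaged 5.68 ± 4.47 CPM in astrocytes (SD, n = 8) and 197.5 ± 112 CPM in flowthrough (SD, n = 4), and its log2 fold change was -5.29 (SE 0.61; edgeR adjusted p = 1.87e-05). Hcst, which encodes the signalling adaptor DAP10, changed by -4.12 (SE 0.55; edgeR adjusted p = 7.16e-05). Tyrobp and Fcer1g, signalling adaptors that myeloid cells also express, changed by -4.43 and -4.29 (edgeR adjusted p = 1.95e-05 and 3.88e-05). The gene that was higher, S1pr5, encodes a sphingosine-1-phosphate receptor found on NK cells and oligodendrocytes; its name was added once the values had been seen. Of 16 lymphocyte trafficking genes, 9 were lower, led by Selplg at -5.65 (edgeR adjusted p = 1.38e-06), and 1, S1pr1, was higher, again against 8.52% each way. S1pr1, likewise added later, averaged 412 ± 167 CPM in astrocytes and 68.6 ± 51.9 CPM in flowthrough (edgeR adjusted p = 0.00145).

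Many markers of other blood and immune cells were also lower in astrocytes. All 8 pan-leukocyte genes were called lower (median -3.74), as were 12 of 12 microglia genes (-4.22), 12 of 12 neutrophil genes (-4.25), 8 of 9 B cell genes (-3.35) and 7 of 7 erythroid genes (-3.59). The dendritic cell list had 5 of 11 lower, and the basophil and mast cell list 2 of 10 lower and 1, Kit, higher, against 8.52% of all genes each way. Fewer genes passed the filter of the astrocyte fit in the B cell (6), neutrophil (11), dendritic cell (9) and basophil and mast cell (7) lists. Those that passed only through flowthrough could hardly be called anything but lower. The summed level of the microglia list was 201 to 694 CPM in astrocytes and 4523 to 9114 CPM in flowthrough. That of the neutrophil list was 107 to 570 CPM in astrocytes and 2743 to 6191 CPM in flowthrough, and that of the erythroid list 200.3 to 1838 CPM in astrocytes and 3292 to 13767 CPM in flowthrough. The part of each of these cells, of blood in particular, in the levels of the 10 genes was not tested.

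**Figure D3:**
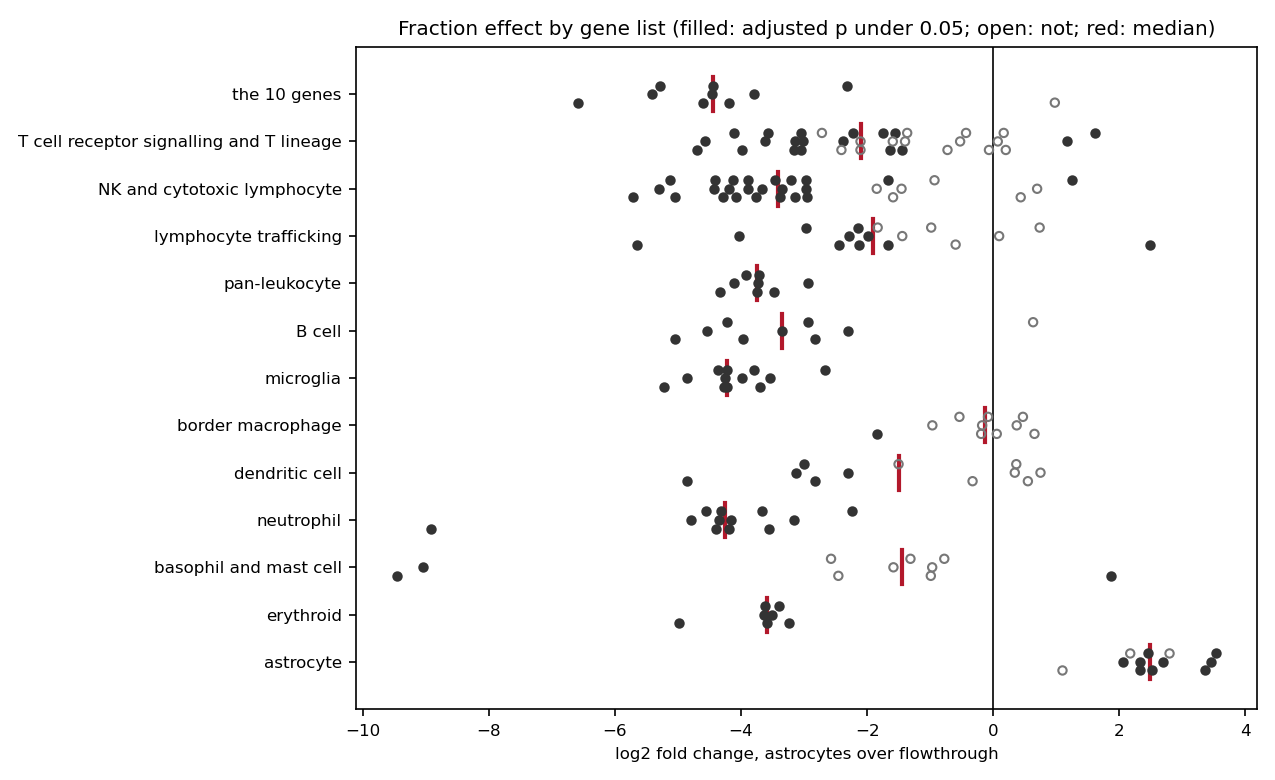
Log2 fold change of astrocytes over flowthrough (horizontal axis) for each tested gene of each list (rows); filled points passed an adjusted p of 0.05, open points did not, and red bars are medians. The 10 genes have a median of -4.45, near those of the microglia (-4.22) and neutrophil (-4.25) lists; border macrophages lie around 0 and astrocyte genes to the right.

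Set against Ptprc, which encodes CD45, the surface phosphatase of all white blood cells, the gap between fractions was smaller for 8 of the 9 genes that were lower in astrocytes, and turned for Lck. Ptprc itself averaged 8.38 ± 4.81 CPM in astrocytes (SD, n = 8) and 49.1 ± 15.8 CPM in flowthrough (SD, n = 4), and its log2 fold change was -2.94 (SE 0.37; edgeR adjusted p = 4.60e-05). Per 1000 Ptprc counts, Nkg7 averaged 284 ± 307 counts in astrocytes and 1273 ± 503 in flowthrough, and Gzma 17.7 ± 30.4 in astrocytes and 162 ± 78.0 in flowthrough. Relative to CD45 both were still lower on average in astrocytes. The 3 CD3 genes together had 76.6 to 1121 counts per 1000 Ptprc counts in astrocytes and 433 to 903 in flowthrough, with aKO 222 and WT 265 at 1121 and 639 and the other 6 astrocyte libraries at 197 or less. These 2 libraries had 66 and 122 Ptprc counts, so their ratios rest on few reads. Lck went the other way, with 235 ± 127 counts per 1000 Ptprc counts in astrocytes and 141 ± 59.7 in flowthrough, but the ranges overlapped. Cd4 averaged 287 ± 120 in astrocytes and 22.4 ± 15.6 in flowthrough, and its lowest astrocyte library, at 149, lay above its highest flowthrough library, at 37.8. The divisor Ptprc was itself 7.69-fold lower in astrocytes, which raises every such ratio there. In CPM the fractions overlapped for Cd4. How many of all genes separate in this ratio was not counted.

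**Figure D4:**
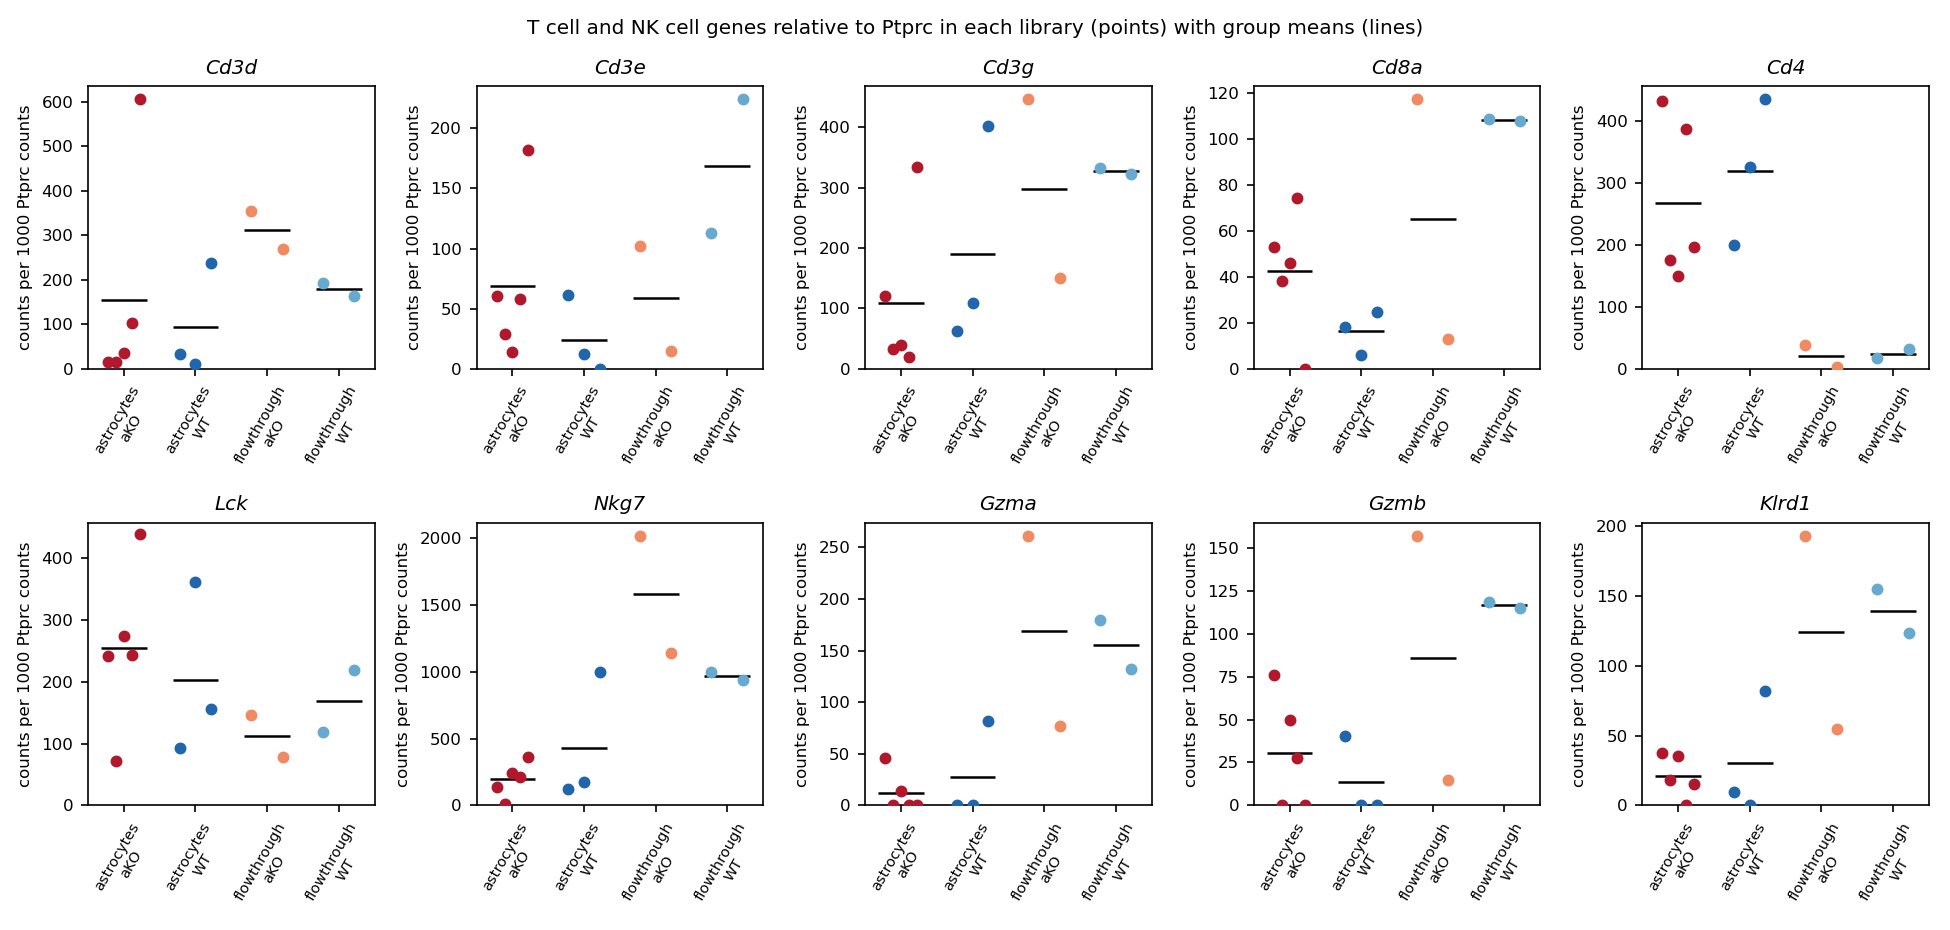
Counts of each gene per 1000 Ptprc counts of the same library (vertical axis, linear, its own range per gene) in aKO astrocytes, WT astrocytes, aKO flowthrough and WT flowthrough; points are libraries and lines group means. Cd4 is the gene whose astrocyte libraries all lie above flowthrough, while the other 9 genes overlap between fractions. The divisor Ptprc is itself lower in astrocytes, and in CPM Cd4 overlaps too.

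Over the 12 libraries, which the fractions split in 2, all pairs of the genes without Cd4 had a positive correlation. Gzma and Klrd1 had a Pearson r of 0.995 and Cd8a and Gzmb one of 0.967, on log2(CPM + 0.5) with TMM scaling. Cd3d and Cd3e, although neighbours, had one of 0.778. Cd4 had a negative r with each of the other 9 genes, from -0.188 with Cd8a to -0.609 with Cd3d. These values are descriptions, as all 12 points share the split between fractions. Among 14341 genes searched, the 8 most like the mean of the 3 CD3 genes were Cnr2 and Siglecg (r of 0.984 each), Gp9, Rgs10, Lrba, Ccl3, Sla and Fam78a, the last with r = 0.978. The 4 most like Nkg7 were Bcl2a1b, Pycard, Ccl4 and Ccl5, with r from 0.989 to 0.982.

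In flowthrough, aKO 205 did not rank alike for all 10 genes. It had the highest Cd3d and Nkg7 levels of the 4 libraries and the lowest Cd3e, Cd8a, Cd4 and Gzmb levels, both in CPM and with the TMM scaling of the tests. It was also lowest in CPM for Cd3g, Lck, Gzma and Klrd1, but with TMM scaling another library was lower for each of these 4. The RPKM ratio of Cd3g to Cd3e was 5.87 and 13.4 in aKO 203 and aKO 205 flowthrough, and 3.96 and 1.94 in WT 201 and WT 202 flowthrough. Ttr, a choroid plexus gene, took 32.1% of the counts of aKO 205 flowthrough and 8.17% to 19.8% of the other 3, and its part in these levels was not tested.

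The study's question was how loss of BMAL1 from astrocytes changes them, and among the T cell and NK cell genes no change between genotypes passed the test in astrocytes. Of the 8 genes that passed the filter of that fit (Gzma and Klrd1 did not), 0 were called by edgeR, where 0.0264% of all 18950 genes were (5 genes). At an unadjusted p under 0.05 there were 299 genes, and DESeq2 called 15 genes (0.0984%). The genotype groups overlapped for all 10 genes, and they did not for 1.41% of all genes tested. Among the 8 tested, Cd8a had the largest positive log2 fold change, of libraries labelled aKO over those labelled WT, at 1.54 (SE 1.01), and Cd3g the lowest, at -1.10 (SE 0.72), each with an edgeR adjusted p of 0.9997. These values moved with single libraries: without WT 201 Cd3e was at 3.42 and Gzmb at 5.79, and without WT 265 Cd3g was at -0.193. Cd8a averaged 0.429 ± 0.312 CPM in aKO astrocytes (SD, n = 5) and 0.129 ± 0.107 CPM in WT astrocytes (SD, n = 3), where the highest WT library had 15 counts. Cd3g averaged 0.553 ± 0.304 CPM in aKO astrocytes and 1.09 ± 0.781 CPM in WT astrocytes, with the WT mean raised by WT 265 at 1.97 CPM. The log2 fold change was -1.08 for Nkg7 (SE 0.74), 0.56 for Cd3e (SE 0.99), 0.43 for Lck (SE 0.52), 0.35 for Gzmb (SE 1.31), 0.32 for Cd3d (SE 1.02) and -0.03 for Cd4 (SE 0.53), each with the same edgeR adjusted p. Without WT 265 the value of Nkg7 was 0.14 and that of Cd3d 1.67. For 5 of the 8 genes the standard error was larger than the estimate.

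In flowthrough, 0 of the 10 genes and 0 of all 20637 genes (0%) were called between genotypes by edgeR. At an unadjusted p under 0.05 there were 817 genes, DESeq2 and limma voom called 0, and edgeR without the count filter called 45. Cd3e averaged 2.18 ± 1.80 CPM in aKO flowthrough and 7.83 ± 0.715 CPM in WT flowthrough (SD, n = 2 each), a log2 fold change of -1.60 (SE 1.05; edgeR adjusted p = 0.804). Lck averaged 4.82 ± 0.172 CPM in aKO flowthrough and 7.96 ± 0.318 CPM in WT flowthrough, a log2 fold change of -0.44 (SE 0.59; edgeR adjusted p = 0.852). Cd8a had a log2 fold change of -1.01 (SE 0.997; edgeR adjusted p = 0.813) and Nkg7 one of 0.72 (SE 0.87; edgeR adjusted p = 0.837). For these 4 of the 10 genes the 2 libraries labelled aKO lay on the same side of the 2 labelled WT, which 32.7% of all genes did. The other 6 overlapped, with log2 fold changes between -0.75 for Gzmb and 0.87 for Cd3d. The values leaned on single libraries: without aKO 205 that of Cd3e was -1.06 and that of Cd8a -0.39, and without aKO 203 they were -2.77 and -2.50.

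**Figure D5:**
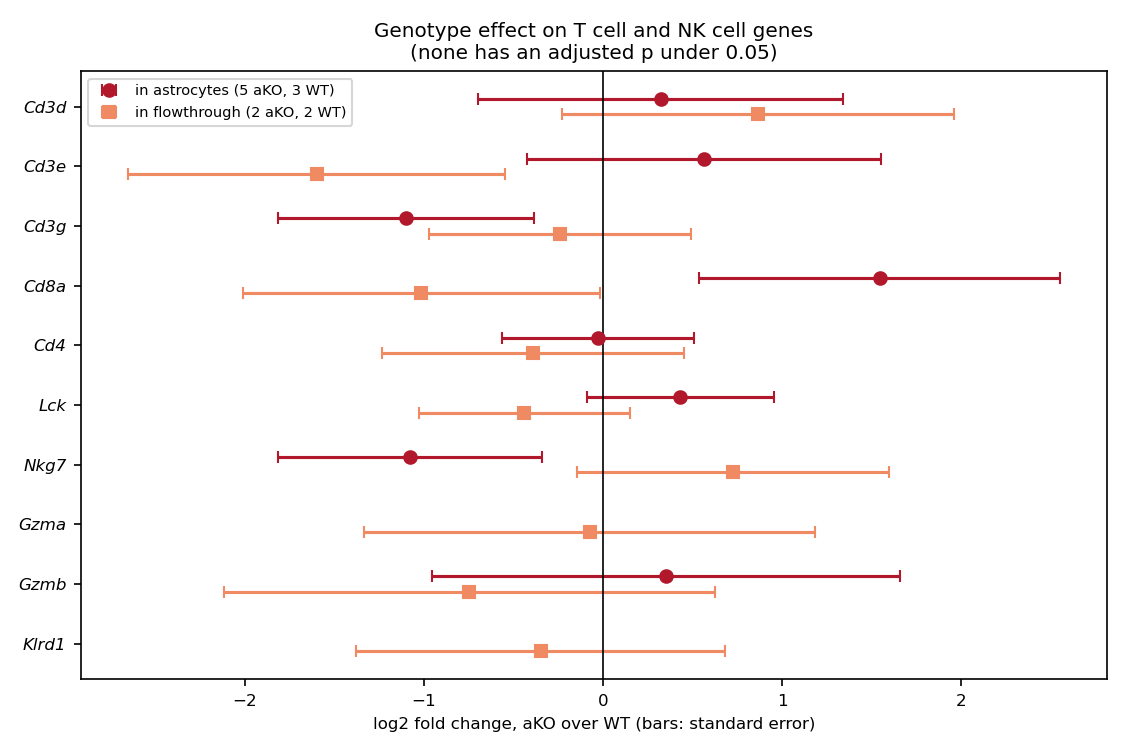
Log2 fold change of libraries labelled aKO over those labelled WT (horizontal axis) with its standard error, in astrocytes (circles, 8 genes that passed the filter) and in flowthrough (squares, 10 genes). None passed; Cd8a lies at 1.54 in astrocytes and -1.01 in flowthrough, and Nkg7 at -1.08 and 0.72.

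The genotype effects in astrocytes and flowthrough were also set against each other in the fit of all 12 libraries. None of the 10 genes and 0 of 20637 genes (0%) differed by edgeR, with 499 genes at an unadjusted p under 0.05 and 0 called by DESeq2 or limma voom. Cd8a had the largest difference, astrocytes minus flowthrough, at 2.55 (SE 1.32; edgeR adjusted p = 0.956), followed by Cd3e at 2.07 (SE 1.34) and Nkg7 at -1.72 (SE 1.09), both with the same edgeR adjusted p. Without WT 201 astrocytes the differences of Gzmb and Cd3e were 6.63 and 4.98, and without aKO 203 flowthrough that of Cd8a was 4.04, none past the threshold. With all libraries the other 7 genes lay between -0.83 for Cd3g and 1.01 for Gzmb. Nothing passed in the 12 other lists either: in each of the 3 genotype comparisons, 0 of their tested genes were called.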

How the data were processed

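RNA of 12 libraries was amplified with Takara Clontech SMARTer v1, per the labels' protocols. The submitters' processing notes name STAR 2.5.1a, featureCounts 1.4.6-p5, Subread, bcl2fastq and GRCm38. The annotation release and strand setting are not given in the sources used here. Without strand, antisense reads may be mixed in. Each deposited table gives, per gene, the read count, the CPM and the RPKM that the authors computed. Deposited CPM equalled the count scaled to the file's own total. Symbols came from GENCODE vM21 (40254 of 41388 identifiers), and 182 of 184 listed symbols were found.

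Counts were tested with edgeR 4.0.16 (R 4.3.3): quasi-likelihood, robust dispersion, TMM scaling, filterByExpr (minimum count 10, minimum total 15), and Benjamini-Hochberg adjustment over all genes tested, threshold 0.05. Genotype in astrocytes used 8 libraries, the other comparisons 4 groups in all 12. SE is the absolute log2 fold change over the square root of F. P-values are two-sided. Members and lists were chosen with earlier results of these data known. The text names the 10 members, Ptprc, up to 4 genes per list with the smallest fraction p, and the genes most like the CD3 mean (8) and Nkg7 (4); other names are said to be chosen after seeing values. Some genes that this rule names are not reported here. Likeness was searched among genes with an official symbol and a mean log2 CPM of at least 0 in flowthrough.

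Both fractions of 201, 202, 203 and 205 come from 1 animal each by their titles. Their deviations from the group means correlated with r = 0.0379, 0.509, 0.194 and 0.499, and each flowthrough group of 2 has opposite deviations by construction. For 202 and 205 the highest r was with their own flowthrough. Astrocytes of 203 had a higher r with flowthrough of 202 (0.434), and those of 201 with flowthrough of 203 (0.0514). The pairing thus rests on the titles. Alternatives were DESeq2 size factors, DESeq2 1.42.0, limma voom (limma 3.58.1), no count filter, no mitochondrial genes and Ttr, library 202 as aKO, no aKO 222 and WT 265 astrocytes, the animal as a block, other sets of libraries in the fit, and each library left out. Limits of a count of 0 (3 counts) cover counting error only.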

Additional observations from a re-analysis of the deposited data

Results flagged for a closer look

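In 30 sets of a gene and a group of 4 or more libraries, 4 held a library that stood far from the rest relative to the range of its group. The cutoff is set for about 1 in 20 among independent sets of normally spread values. These sets share libraries and many hold values near 0, so the 4 cannot be judged against it. Cd3g and Nkg7 in astrocytes were highest in WT 265, at 1.97 and 4.90 CPM. Nkg7 in flowthrough was lowest in WT 202, at 35.0 CPM, and Cd4 in flowthrough was lowest in aKO 205, at 0.182 CPM. WT 265 had 122 Ptprc counts and a Ttr share of 17.0%, the highest share among astrocyte libraries, and aKO 205 flowthrough had the highest Ttr share of all, at 32.1%. The part of these in the 4 values was not tested.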

How the results depend on the processing

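The fraction call held for the same 9 genes in each of 21 alternatives, and Cd4 passed in none. No alternative called any of the 10 genes between genotypes. The count of genes called between fractions (3517) was 5951 with the animal as a replicate block, and 1691 to 4107 with 1 library left out. For genotype in astrocytes (5 genes) it was 8 without the count filter, 15 by DESeq2, 0 with library 202 as aKO, 3 without aKO 222 and WT 265, 1 in the fit of all 12 libraries, and 0 to 5 with 1 library left out. For genotype in flowthrough (0) it was 45 without the filter and 0 to 1 with 1 library left out. For the difference of genotype effects (0) it was 40 without the filter, and 1 with the block or in the same 8 libraries without it. The block changed no other call.

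Directions that turned were those of genotype values that had not passed, and that of Lck per 1000 Ptprc counts, where the log2 ratio of astrocytes over flowthrough was 0.74. The divisor Ptprc fell more than Lck in astrocytes, where it was 7.69-fold lower. In astrocytes, with library 202 as aKO, Cd3d was -0.47, Cd3e -0.0893 and Gzmb -0.42. Without aKO 222 and WT 265, Cd3e was -0.15, Cd4 0.32 and Nkg7 0.13. With 1 library left out, Cd3d ranged from -0.55 to 1.67, Cd4 from -0.36 to 0.19, Nkg7 from -1.49 to 0.14 and Gzmb from -0.15 to 5.79. In flowthrough, Gzma was 0.0805 by limma voom. With 1 library left out, Cd3g ranged there from -0.67 to 0.30, Cd4 from -2.29 to 0.28, Gzma from -0.62 to 0.74 and Klrd1 from -0.86 to 0.39. For the difference of genotype effects, Cd3g was 0.0405 in the same 8 libraries unblocked and Klrd1 -0.56 with library 202 as aKO. Gzma was 0.47 by limma voom, 4.82 without aKO 222 and WT 265, 5.18 with the block and 5.25 in the same 8 libraries unblocked. With 1 library left out, that difference ranged from -1.27 to 0.71 for Cd3d, -1.36 to 0.0206 for Cd3g, -0.29 to 2.28 for Cd4, -1.75 to 4.54 for Gzma and -0.43 to 1.62 for Klrd1. The cause of each change was not tested.

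Astrocyte libraries held 0 to 163 counts of any of the 10 genes, and flowthrough 2 libraries a genotype.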
